A study of Mus musculus with 4 samples.

Results

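The Ugt1a genes encode UDP-glucuronosyltransferases, enzymes of the endoplasmic reticulum that join glucuronic acid to bilirubin, steroids, phenols and drugs so that these can be excreted. They were examined here in a list of N6-methyladenosine (m6A) peaks from mouse natural killer (NK) cells. The members were all distinct peaks that name a gene with a symbol starting Ugt1a, together with every other peak that overlaps the cluster on chromosome 1 (build GRCm38) from just upstream of Ugt1a6a to the end of its last exon. They came to 21 of 20727 distinct peaks, of which 18 named Ugt1a6a and 3 named Gm20528, a transcript on the opposite strand. The 7 genes the rule lists by name, and also Ugt1a5 and Ugt1a8, make up the 9 Ugt1a genes of the annotation. The cluster was chosen by the number of peaks of Ugt1a6a, 18, more than any gene except Fgfr2 with 22, so that number is given as a description with no test.

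The samples were splenic NK cells of C57BL/6 mice, with 2 libraries of RNA fragments pulled down by an antibody against m6A and 2 input libraries made without antibody. The methods state that the cells had been expanded in the animals by injection of an IL-15 expression plasmid and were then sorted, and no genotype is given for these libraries. The study used mice several weeks old by its methods, and the expansion lasted a month or more. The labels give no age or number of animals, and nothing there says whether the replicates came from separate animals. In this assay, methylated RNA immunoprecipitation sequencing (MeRIP-seq), messenger RNA is broken into fragments, and a peak is a stretch where pulled-down fragments outnumber input fragments. The authors deposited 1 fold enrichment (the ratio of immunoprecipitate to input reads) and 1 log10 p-value for each peak over all 4 libraries, so no value has an error between replicates and the depth is unknown.

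The 9 genes lie on top of each other. Each has its own promoter and first exon, which encodes the part of the enzyme that binds the substrate, and each splices that exon to the same set of downstream exons, which encode the part that binds UDP-glucuronic acid and the membrane anchor. In the GENCODE annotation 4 exons were common to all 9 genes, at chr1:88215044-88215175, chr1:88215795-88215882, chr1:88216138-88216357 and chr1:88218127-88218997. The last of these, of 871 nt, held 295 coding nt, the common stop codon at chr1:88218422-88218424 and 573 nt of 3' UTR. A read from these exons has the same sequence whichever of the 9 genes it came from. Ugt1a7c had the longest last exon, which continued past the common end to base 88220002. Ugt1a1 encodes the bilirubin-conjugating enzyme, and Ugt1a6a and Ugt1a6b encode enzymes that act on small phenols.

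The sequence that carried most of the peaks was the last exon. DRACH is the consensus around m6A, in which D stands for any base but C, R for a purine and H for any base but G, and 17 such sites were found on the coding strand of this exon up to its common end. Sites under the peaks follow with their flanks, from GRCm38, 5′ to 3′ on the plus strand. Capitals mark the site, and positions are those of the A in the site, counted from the last base of the stop codon. That at -256 lies only in the longest peak around the stop codon among those that name Ugt1a6a, those at -163 and -101 lie in every such peak, and the last 5 lie in the peaks further downstream.
site at -256, chr1:88218154-88218182: cagccttcacaaGGACCgtcctatagagc
site at -163, chr1:88218247-88218275: cccggccgcccaTGACCtcacctggtatc
site at -101, chr1:88218309-88218337: tggccattgtgtTGACAgtggtcttcatt
site at 223, chr1:88218633-88218661: tatcttcagtctAGACAactcttgccatc
site at 279, chr1:88218689-88218717: ctctgctttcagTGACAgccccacagttt
site at 338, chr1:88218748-88218776: ccctggattctcAGACTgccgtggccttc
site at 401, chr1:88218811-88218839: ttatgggtggcaAGACCtttggagctttg
site at 436, chr1:88218846-88218874: gagatgaggctgTGACActgatggccctg

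Most peaks of the cluster lay in this common exon. Of the 18 peaks that named Ugt1a6a, 15 lay inside the last exon, and the 3 peaks that named Gm20528 did so as well. On exon bases used by at least 2 Ugt1a genes there were 16 of the 18 peaks (88.9%, 95% Wilson interval 67.2 to 96.9%, for counting error only), and on bases used by at least 5 genes there were 15 (83.3%). The peaks overlap and share reads, so they are not independent counts. The interval treats them as independent and is therefore too narrow.

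Although the list named Ugt1a6a alone, the same peaks lay on the exons of every gene of the cluster. Ugt1a1, Ugt1a2, Ugt1a5, Ugt1a6b, Ugt1a8, Ugt1a9 and Ugt1a10 were each named by 0 peaks and each had 18 peaks of the window on their exons. Ugt1a7c was also named by 0 peaks and had 19 on its exons, and Ugt1a6a (ENSMUSG00000054545, chr1:88134809-88218997) had all 21. The gene name in the list therefore did not separate the 9 genes at the last exon. The other common exons, of 132, 88 and 220 nt, carried 0 peaks.

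**Figure D1:**
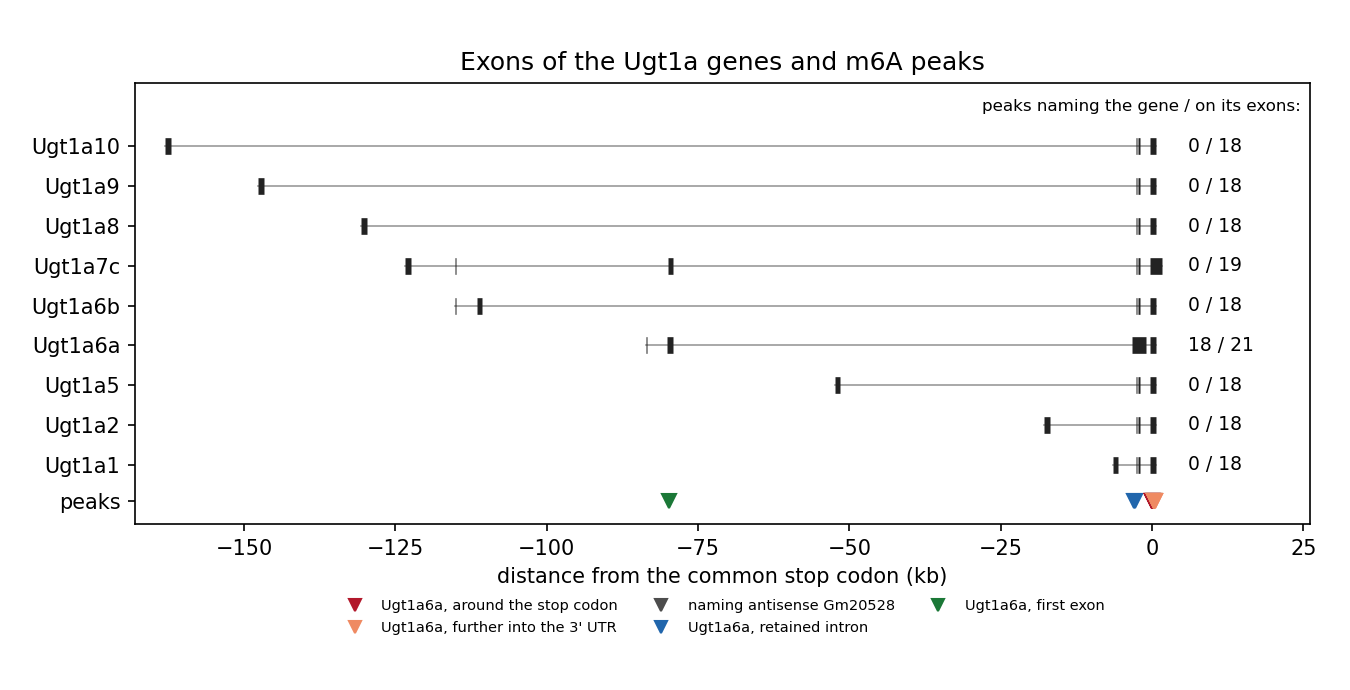
Exons (black blocks, merged over the transcripts of each gene) of the 9 Ugt1a genes, with distance from the common stop codon in kb on the x axis and triangles for the centres of the 21 peaks, which overlap near 0. The numbers give the distinct peaks that name each gene and the window peaks on its exons, and Ugt1a6a is the gene with 18 and 21, while the others have 0 and 18 or 19. The wide block of Ugt1a6a before the last exon is its retained-intron transcript.

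First exons are where most of the genes differ in sequence, and 1 peak lay on them. The share of first exons with a peak over all genes is not given here. The first exons measured 879 to 954 nt, and those of Ugt1a1, Ugt1a2, Ugt1a5, Ugt1a6b, Ugt1a7c, Ugt1a8, Ugt1a9 and Ugt1a10 carried 0 peaks. The first exon of Ugt1a6a carried 1. Exon bases that belong to a single gene added up to between 879 nt (Ugt1a9) and 2142 nt (Ugt1a6a), and the peaks on such bases were 2, both in a retained intron of Ugt1a6a.

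The first-exon peak of Ugt1a6a (chr1:88138506-88138656, 151 nt) was enriched 5.69-fold, with a log10 p of -1.63. These were the highest fold enrichment and the weakest p-value of the 21 peaks. Its gene column named Ugt1a6a, while its region column named exon 2 of a Ugt1a7c transcript that uses the same exon. This exon also has a near-identical copy in Ugt1a6b. The first exons of Ugt1a6a and Ugt1a6b were 96.3% identical, the closest of 36 pairs, whose median was 59.4% and lowest value 57.9%. Within the peak 148 of 151 nt were the same in both genes, and the 3 substitutions, counted from 1 at the 5′ end of the peak with the Ugt1a6a base first, were A106G, A109G and A137G. How the authors treated reads that fit both copies is not given in the sources used here, so the peak is uncertain as to its gene. Around the only GGAC of the peak (capitals), shown because it occurs in both copies, the genes differed at 1 of 28 nt, and the other substitutions lay just upstream of these bases.
Ugt1a6a, chr1:88138618-88138645: ctcagtgaacgaGGACatgacattatgg
Ugt1a6b, chr1:88107086-88107113: ctcagtgaacgaGGACatgacattgtgg

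A pair of peaks lay in the intron between the common exons of 132 and 88 nt. The authors' label places them in exon 3 of a retained-intron transcript of Ugt1a6a, while the coding transcripts splice this stretch out. The peak of 91 nt (chr1:88215430-88215520) was enriched 3.41-fold (log10 p -1.66), and the peak of 180 nt (chr1:88215580-88215759) was enriched 3.48-fold (log10 p -1.98). Both also lie in an intron of the other 8 genes, so unspliced RNA of any of the 9 covers them. Each held 1 GGAC, shown in capitals.
intron peak of 91 nt, chr1:88215503-88215530: ttggttagctctGGACattcactggttt
intron peak of 180 nt, chr1:88215642-88215669: tctgagctccagGGACttcctatgcacc

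The 3 peaks outside the last exon had pairs of values that recur in the list. The same fold enrichment and log10 p as in the first-exon peak occurred in 200 distinct peaks, those of the 91-nt intron peak in 47 and those of the 180-nt intron peak in 20. None of these 3 peaks had a p-value under 0.001, whereas 13 of the 15 Ugt1a6a peaks in the last exon did. Among all distinct peaks 61.5% had such a p-value, beside 13 of the 18 Ugt1a6a peaks (72.2%).

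In the last exon the Ugt1a6a peaks formed a group around the stop codon and a group further into the 3' UTR. The group at the stop codon held 7 distinct peaks between bases 88218159 and 88218549, and 237 nt (chr1:88218230-88218466) lay in all 7. This stretch ran from 194 nt before to 42 nt after the last base of the stop codon. Going from the most upstream start to the most downstream, the 7 peaks began at -265, -233, -227, -225, -221, -217 and -194 nt from that base. Between the outermost starts, 5 starts fell within 17 nt. Their ends lay within 83 nt of each other, so the peaks are overlapping versions of one stretch with differing lengths. The peak from -225 to 103 was also deposited in 2 identical rows.

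The fold enrichments of these 7 peaks were close together. In the same order they were 2.99, 2.49, 2.48, 2.55, 2.59, 2.57 and 1.99, with a median of 2.55. The log10 p-values were -23.5, -23.2, -23.7, -24.9, -25.3, -24.6 and -11. The shortest peak, of 237 nt, had both the lowest fold enrichment and the weakest p-value, and the longest, of 390 nt, had the highest fold enrichment. These values come from overlapping reads of the same libraries, so their spread is not an error between replicates.

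All 7 carried the authors' label of 3' UTR, but most of their length was coding. They held 192 to 263 nt of coding sequence and 42 to 125 nt of 3' UTR. The coding bases here encode the C-terminal end of the enzymes, with the membrane-spanning segment and the short cytosolic tail, which is the same in all Ugt1a proteins.

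**Figure D2:**
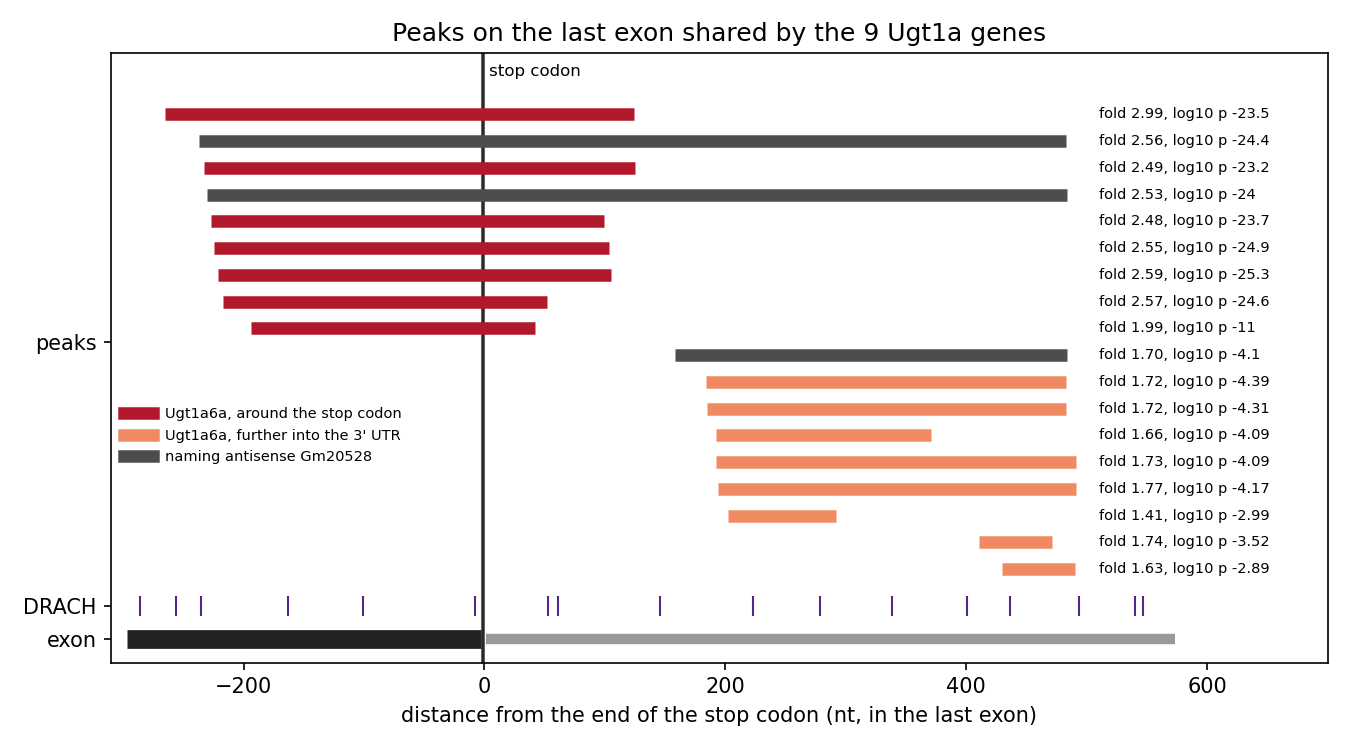
The 18 peaks on the last exon as horizontal bars, with distance in nt from the end of the stop codon on the x axis, the coding part (black) and 3' UTR (grey) of the exon, purple ticks for 17 DRACH sites, and the fold enrichment and log10 p of each peak at the right. The 7 red bars cross the stop codon with folds of 1.99 to 2.99, the 8 orange bars lie downstream with folds of 1.41 to 1.77, and 2 of the 3 grey bars, which name Gm20528, join both.

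The downstream group held 8 distinct peaks between bases 88218608 and 88218915, all wholly in the 3' UTR. Their fold enrichments ran from 1.41 to 1.77 with a median of 1.72, and their log10 p-values from -2.89 to -4.39. Of the 8 peaks, 4 were 298 to 300 nt long and ran from 184 to 194 nt after the stop codon to 483 or 491 nt after it, with folds of 1.72, 1.72, 1.73 and 1.77. The others were shorter pieces of the same stretch. They measured 180, 91, 61 and 61 nt, and their folds were 1.66, 1.41, 1.74 and 1.63. The peak of 91 nt and that from 430 to 490 nt, with log10 p-values of -2.99 and -2.89, were those of the exon that missed a p-value of 0.001. No fold enrichment of this group reached the lowest of the stop codon group, and no test was made since neither group has replicate values.

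Between the groups lay 58 nt (chr1:88218550-88218607) under no peak that named Ugt1a6a. The last downstream peak ended 82 nt before the common transcript end, and the 1005 nt by which the Ugt1a7c exon runs beyond that end, the first few of them also annotated to Ugt1a6b, Ugt1a8 and Ugt1a10, carried 0 peaks. This tail held 24 DRACH sites.

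**Figure D3:**
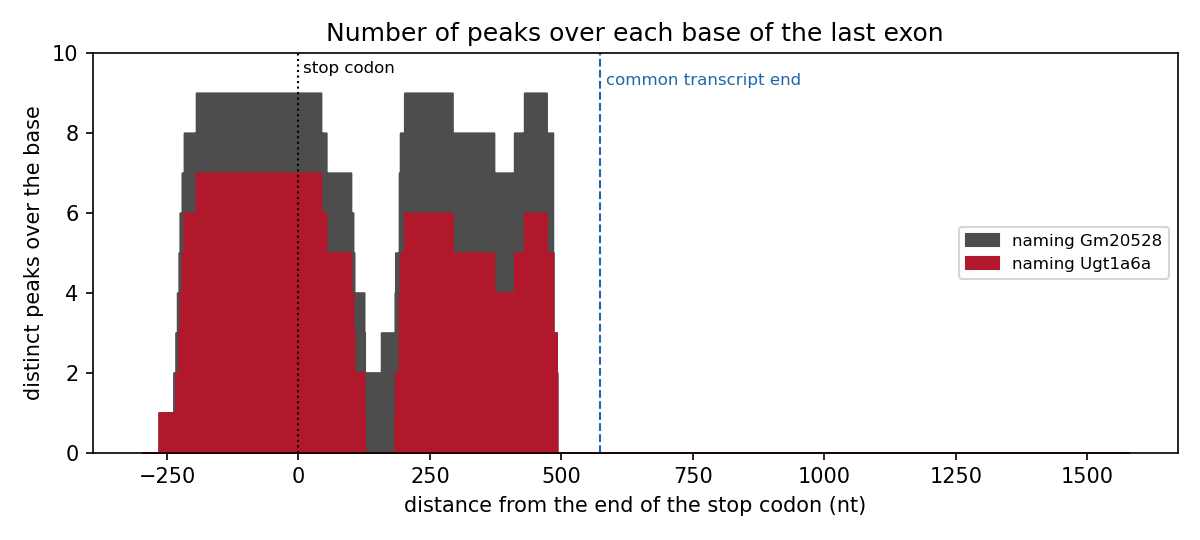
Number of distinct peaks over each base of the last exon (y axis) against distance in nt from the end of the stop codon (x axis), in red for peaks that name Ugt1a6a and in grey, stacked on top, for those that name Gm20528; the dotted line marks the stop codon and the dashed line the common transcript end. Around the stop codon 7 red and 2 grey peaks overlap, the red drops to 0 in the gap of 58 nt, and no peak lies past the dashed line.

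Gm20528 (ENSMUSG00000092220, chr1:88055393-88218584) is annotated on the minus strand as a processed transcript without a coding sequence, and one of its exons lies across the Ugt1a stop codon. Its 3 peaks were of 721, 715 and 327 nt, with fold enrichments of 2.56, 2.53 and 1.70 and log10 p-values of -24.4, -24 and -4.1. The peak of 721 nt lay on Gm20528 exons for 394 nt, that of 715 nt for 391 nt and that of 327 nt for 3 nt. They ran up to 324 nt beyond base 88218584, which is the 5′ end of Gm20528 on the minus strand. The bases beyond it are exonic in the Ugt1a genes and not in Gm20528. All 3 carried the 3' UTR label although this gene is annotated without one. Whether the libraries kept strand is not given in the sources used here, and without strand, reads from Gm20528 and from the Ugt1a genes cannot be told apart. The folds of the wide pair lay within the range of the stop codon group, and that of the third within the range of the downstream group.

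Set beside all peaks, the Ugt1a peaks were of modest fold and the stop codon group was strong in significance. A fold enrichment of at least 5 was found in 1 of the 18 Ugt1a6a peaks (5.56%), the first-exon peak, while 34.6% of all distinct peaks had one. A fold enrichment of at least 2 was found in 9 of 18 (50%), against 63.9% of all. The median fold was 2.24 over the 18 peaks and 2.66 over all (interquartile range 1.73 to 9.48). A closer comparison is with the 8592 peaks outside the window that carry the 3' UTR label and span at most 500 nt, whose median fold was 1.92 (interquartile range 1.56 to 2.84). The median of the stop codon group, 2.55, was above the fold of 70.5% of them, and its median log10 p, -23.7, was stronger than in 93.0%. The median of the downstream group, 1.72, was above 36.4%, and its median log10 p, -4.09, was stronger than in 50.3%. Apart from the upper limit, these peaks were not matched for width, whereas the stop codon peaks measured 237 to 390 nt. The p-values are therefore not compared at equal width.

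**Figure D4:**
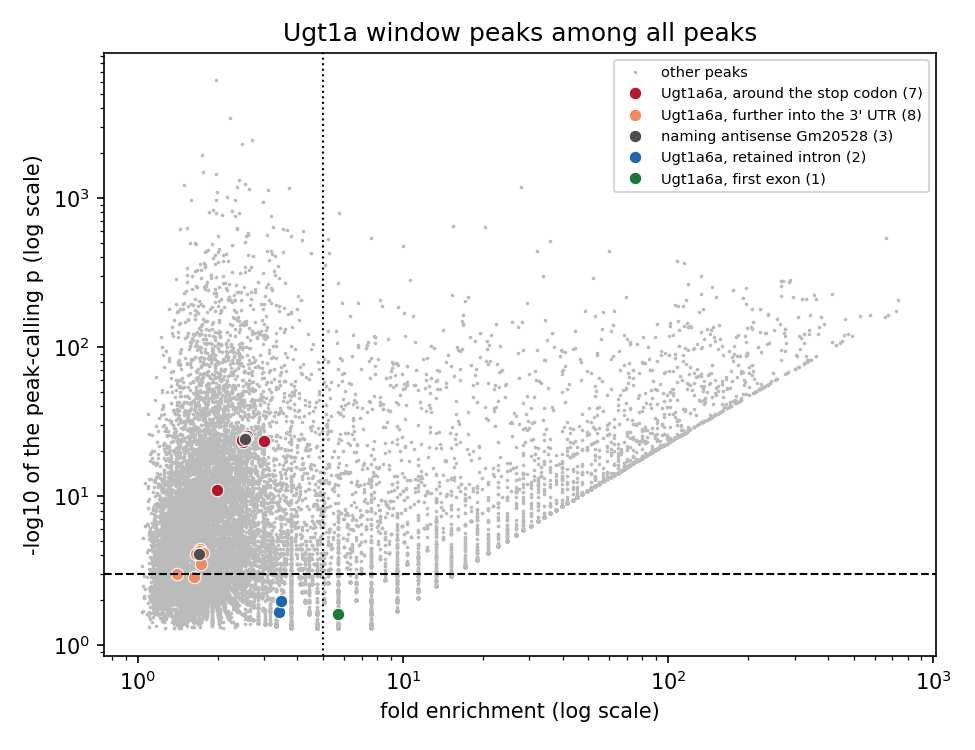
Fold enrichment (x axis, log scale) against -log10 of the peak-calling p (y axis, log scale) for the 21 window peaks in colour and all other distinct peaks in grey; the dotted line is a fold of 5 and the dashed line a p of 0.001. The stop codon group sits at folds of 1.99 to 2.99, above the dashed line, and the first-exon and intron peaks lie below it.

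Peaks piled up on the last exon to a depth not reached elsewhere, which is a description since the number of peaks chose the cluster. At 9 distinct peaks over a single base, counting those of at most 1000 nt, the last exon was deeper than any other place, where the most was 3 peaks, reached in 17 groups. Of 15314 peaks of that width 8.17% overlapped another, beside 18 of the 21 in the window. Merged where they overlap, the 18 Ugt1a6a peaks made 5 intervals: the first exon, each intron peak and the pair of groups in the last exon. The protocadherin alpha and gamma genes encode neuronal adhesion molecules and join single first exons to common exons in a similar way. Of these, 2 of 34 were named by a peak (5.88%), beside 46.3% of all protein-coding genes. This count is by name, which need not separate genes that share exons. The peak with the highest fold, 62.6, named Pcdhgc4 and spanned 64337 nt, including the whole Pcdhgc5 peak of 8980 nt (fold 19). A further 3 peaks of 60 or 61 nt named Pcdhgc4. Their starts lay within 1 nt of each other, and each had a fold of 2.84 and a log10 p of -1.77.

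DRACH sites were counted in the peaks that name Ugt1a6a and in the rest of the exon. There were 7 sites in the 391 nt of the stop codon group (17.9 per kb), 5 in the 308 nt of the downstream group (16.2 per kb) and 5 in the remaining 172 nt of the exon (29.1 per kb), which include the gap of 58 nt that peaks naming Gm20528 cover. The other common exons had 20.5 sites per kb and the first exons of the 9 genes also 20.5. In 2997 peaks elsewhere of the same widths, 237 to 390 nt, that lie in an exon of their gene, the median was 19.4 per kb (interquartile range 13.3 to 25.1), and 99.0% held at least 1 site on the strand of the gene. A match is a description of the letters and not a mapped m6A site.

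Other UGT and UDP-sugar enzymes, the supply of UDP-glucuronic acid, and the hydrolysis and export of glucuronides were looked at by list, and 13 of 29 genes had a peak (44.8%), against 46.3% of all protein-coding genes. A peak with a fold of at least 5 was found in 4 of these 13, against 43.4% of coding genes with a peak. In the first of these lists 5 of 16 genes had a peak, and the Ugt2b family, which acts on steroids and drugs in the liver, had 1, in Ugt2b36 (fold 4.74, log10 p -1.63). The highest fold was 72.1 at Ugt2a2 (log10 p -16.2), in a peak of 31382 nt whose span covered 100% of the gene's exon bases. Such a span does not place the enrichment within the gene. Uggt2 and its relative Uggt1, which encode sensors of glycoprotein folding, had highest folds of 11.4 (log10 p -2.09) and 1.9 (log10 p -2.19). The gene for the enzyme that makes glucosylceramide, Ugcg, had 1.68 (log10 p -67.5). For the supply of UDP-glucuronic acid 5 of 8 genes had a peak. Uxs1, which turns this sugar into UDP-xylose, reached 13.3 (log10 p -2.5), and Ugp2, which makes UDP-glucose, reached 7.93 (log10 p -12). Ugdh, which makes UDP-glucuronic acid itself, had 0 peaks. Gusb, the lysosomal enzyme that removes glucuronic acid, had 3 peaks with a highest fold of 1.9, and of the export pumps Abcg2 had 3.66, Abcc4 2.5 and Abcc3 1.31.

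Regulators of Ugt1a transcription had peaks in 7 of 12 cases (58.3%), beside 46.3% of all protein-coding genes. The highest folds were 15.2 at Nr3c1 (the glucocorticoid receptor, log10 p -2.91), 7.59 at Keap1 (the repressor of NRF2, log10 p -1.31) and 3.79 at Arnt (the partner of the aryl hydrocarbon receptor, log10 p -2.73). Hnf4a had 3.32 with a log10 p of -1.34, and Rxra had 2.47 with the much stronger log10 p of -47.6. Ahr, the aryl hydrocarbon receptor, had a highest fold of 1.84 (log10 p -2.32) and Nfe2l2, which encodes NRF2, of 1.97 (log10 p -2.01). The nuclear receptors Nr1i2 and Nr1i3, known from the liver, had 0 peaks.

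A peak shows neither how much RNA a gene makes nor which cells made it. All 8 NK cell markers on the list had a peak, while 46.3% of all protein-coding genes had one. Their highest folds ran from 1.36 to 2.5, and the log10 p-values of these peaks from -2.86 (Eomes) to -624 (Gzma). In the other marker lists, 4 of 4 myeloid, 1 of 3 B cell, 1 of 3 T cell and 2 of 4 liver and bile duct genes had one. The myeloid list includes Itgam, which encodes CD11b. The paper stages NK cells by CD11b, so a peak in Itgam alone does not separate NK cells from myeloid cells. Highest folds were 30.3 at Cd3e (log10 p -6.35) and 7.59 at Cd79a (log10 p -9.11). The Cd3e peak spanned 100% of the gene's exon bases. Alb had 1.87 (log10 p -8.14) and Ttr 1.53 (log10 p -1.35). Among the myeloid genes, Lyz2 had 1.9 (log10 p -143) and Csf1r 1.64 (log10 p -322). Adgre1 had 1.38 (log10 p -35.3) and Itgam 1.29 (log10 p -4.85). The part of cells other than NK cells in the Ugt1a peaks was not tested.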

How the data were processed

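Reads were trimmed by the authors and aligned by HISAT2 (version 1.0 in the submitters' processing notes) to the mouse genome (GRCm38 in those notes), called peaks with exomePeak and annotated them with ChIPseeker (version 1.0). The deposited fold enrichment is a ratio of immunoprecipitate to input reads, and the deposited significance is a score, the log10 of an unadjusted p-value. Both are given once per peak over all libraries, with 0 columns per sample, so depth and replicate error are unknown and the planned comparison per sample was not run. How replicates were combined is not given in the sources used here.

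Of 20751 rows, 24 repeated another and were removed. Peaks were placed on GENCODE M21 exons by at least 1 nt of overlap. The list gives only the span of a peak, without exon blocks, and each of the 21 members lay within a single exon or intron. Sequences were read from the RefSeq copy of GRCm38 with pysam 0.24.0. First exons were aligned with Biopython 1.88 (global, end gaps free), and identity was taken over aligned columns. Functions for overlap and motif search were tested on simulated data. A strong peak has a fold enrichment of at least 5. The members and gene lists were chosen with earlier results of these data known. Named genes were the Ugt1a genes, any gene named in the window, and at most 5 per list with the highest fold, and others were chosen after their values were seen. Some sequences of the last exon are not reported here.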

Additional observations from a re-analysis of the deposited data

How the results depend on the processing

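Of 35 alternative values for 9 results, 24 stayed close (counts within 1.5 times, other values within their interval or spread) and 11 moved. For the share on shared exons the interval treats overlapping peaks as independent, so these labels are only descriptive. When peaks under a fold of 2 were left out, the number of Ugt1a peaks went from 18 to 9 and that of window peaks from 21 to 11, and with a fold of at least 5 each was 1, leaving a median fold of 5.69. The share of Ugt1a peaks on exon bases of at least 2 genes was 100% with a fold of at least 5 and with a p-value under 0.001. The former rests on 1 peak, the first-exon peak, which lies outside the common exons, and the latter on 13 peaks. The single strong Ugt1a peak became 3 with a fold of at least 3 and 0 with a fold of at least 10. GGAC occurred at 4.46 per kb of the merged Ugt1a peaks, where DRACH occurred at 18.7 per kb. Any peak, in place of a strong one, was found in 13 genes of the glucuronidation lists. Apart from the share on shared exons, each of these changes is built into its alternative, which keeps fewer peaks, admits more or counts a rarer motif. Adding the peaks that name Gm20528, and the width limits on overlap counts, were alternatives chosen after seeing the data.

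No paired analysis was possible because the list gives no value per sample, and replicates could not be left out for the same reason.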

Other observations

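Other detoxifying enzymes outside the UGT family had peaks in 13 of 24 genes on the list (54.2%), beside 46.3% of all protein-coding genes. The highest folds were 62.6 at Gstt2, 27.8 at Hmox1, 16.4 at Mgst2, 15.2 at Cyp1b1 and 11.4 at Gsto1. Hmox1 encodes heme oxygenase, which starts the pathway from heme to bilirubin, the substrate of the Ugt1a1 enzyme. Its peak lay on 327 nt labelled 3' UTR (chr8:75100263-75100589) with a log10 p of -1180, while the peak of Gsto1 spanned 138628 nt and had a log10 p of -4.49. The genes around the cluster had peaks in 7 of 9 cases (77.8%). Their highest folds were 43.6 at Usp40, 32.2 at Mroh2a, 25.8 at Atg16l1, 19 at Dgkd and 9.48 at Trpm8. The Dgkd peak held 0 exonic nt of its gene, and the Trpm8 peak spanned 111633 nt with a log10 p of -1.69. Dnajb3, which lies inside the cluster on the opposite strand, had 0 peaks.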
